A study of Mus musculus with 4 samples.

Results

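The synaptic scaffold genes of the Dlg, Magi and Shank families were described by the listed peaks of TOP2B cleavage complexes in and around them. The 10 genes were Dlg1, Dlg2, Dlg3, Dlg4, Magi1, Magi2, Magi3, Shank1, Shank2 and Shank3, and a peak was taken where its summit lay in the span of a gene or within 10 kb of it. This gave 79 peaks of 35539 in the list. The measurements came from cultured cortical neurons of E16 wild-type Swiss-Webster mice, all treated with etoposide at 50 µM for 30 min, and no untreated culture was used here. Chromatin immunoprecipitation (ChIP) with a TOP2B antibody gave 2 libraries, the matching input DNA gave another 2, and the authors deposited 1 peak list pooled over libraries. The values therefore have no spread between replicates, the depth of each library is unknown, and intervals given here cover counting error only. A peak list does not show which genes were expressed, so the identity of the cells could not be checked from it.

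TOP2B is the type II topoisomerase of postmitotic neurons. It cuts both strands of a DNA duplex, passes another duplex through the gap and rejoins the ends, and during that cycle it is covalently bound to the cut DNA. Etoposide blocks the rejoining step, so that the covalent complexes persist and can be precipitated without crosslinking. The scaffold genes encode large multidomain proteins with PDZ domains that hold receptors, channels and signalling enzymes at cell junctions. Dlg proteins bind glutamate receptors and potassium channels at the postsynaptic density, Magi proteins act at synapses and at epithelial junctions, and Shank proteins link this upper layer to Homer and the actin cytoskeleton. Several of these genes are far longer than a typical mouse gene, and topoisomerases are known to be needed for the transcription of many long neuronal genes.

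The promoters of the scaffold genes are shown first, as the sequences at which their transcription starts. RefSeq (build GRCm38.p6) gave 18 transcription start positions for 8 of the 10 genes. The windows from 250 bases before to 50 bases after these starts held 0 summits. Of all 32851 windows of this kind 0.658% held one, a share that gives 0.118 windows for 18 starts, so a count of 0 does not set these genes apart. The nearest summit to a listed start lay 2229 bp away, in Dlg4. The 250 bases before 3 of these starts are printed 5′ to 3′ on the strand of the gene, and capitals mark the GC box GGGCGG, on either strand. The first belongs to the Dlg4 start with the nearest summit (chr11:70023732-70023981, plus strand), the next to Shank3, which held the peak of highest fold (chr15:89499358-89499607, plus strand), and the last to the first listed start of Dlg2, which held most summits (chr7:91090536-91090785, plus strand).
Dlg4: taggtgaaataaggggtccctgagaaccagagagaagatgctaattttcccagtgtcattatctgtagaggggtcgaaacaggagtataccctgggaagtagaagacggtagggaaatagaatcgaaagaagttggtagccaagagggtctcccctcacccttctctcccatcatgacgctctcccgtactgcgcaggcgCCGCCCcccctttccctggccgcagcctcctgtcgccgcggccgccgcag
Shank3: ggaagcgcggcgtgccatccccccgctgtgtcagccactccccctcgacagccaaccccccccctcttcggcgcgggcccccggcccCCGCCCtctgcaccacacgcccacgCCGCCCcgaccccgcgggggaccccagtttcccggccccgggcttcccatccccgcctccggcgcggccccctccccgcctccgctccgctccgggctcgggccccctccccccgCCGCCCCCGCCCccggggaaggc
Dlg2: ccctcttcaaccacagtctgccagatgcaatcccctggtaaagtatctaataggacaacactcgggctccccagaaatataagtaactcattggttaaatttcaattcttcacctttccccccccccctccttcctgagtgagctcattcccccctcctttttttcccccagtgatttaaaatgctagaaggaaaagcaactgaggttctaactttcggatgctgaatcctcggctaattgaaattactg

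These promoters differed widely in CpG content. The Shank3 window held 31 CpG dinucleotides in 250 bases and 4 GC boxes, the Dlg4 window 14 CpG and 1 GC box, and the Dlg2 window 3 CpG and no GC box. The median over all promoters in the table was 6 CpG, with quartiles of 2 and 16. The summit nearest to each of these starts lay 23.2 kb away in Shank3, 2.2 kb away in Dlg4 and 15.9 kb away in Dlg2. Over all 18 listed starts, 8 held GGGCGG, against 32.7% of all promoters. The TATA box TATAAA was found at 2 starts (12.4% of all promoters), and neither TGACGTCA, the cAMP response element, nor TGANTCA, the AP-1 motif, at any (1.55% and 6.75% of all promoters). Each motif was searched on both strands, and no matches overlapped. All 3 printed starts lie inside the span of their gene, downstream of its lower-coordinate end.

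Of the 10 genes, 9 had a summit in the span or within 10 kb, against 53.4% of all protein-coding genes. A summit inside the span was found in 8, against 36.6% of protein-coding genes. These shares are not matched for length, and the scaffold genes ran to 1973.1 kb, where the median protein-coding gene spans 17.3 kb. No member had a summit within 1 kb of either end of its span, and 8.30% of protein-coding genes had one. Summits inside the spans numbered 75, or 1.46 per 100 kb (95% Poisson interval 1.15 to 1.83), against 1.71 per 100 kb summed over all protein-coding genes. That comparison is not matched for length either. The regression on length and chromosome described further on gave 70.8 fitted summits for the 10 genes together (1.06 times). The 4 scaffold genes over 400 kb held 1.40 per 100 kb (1.07 to 1.79), against 1.30 summed over all protein-coding genes over 400 kb.

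**Figure D1:**
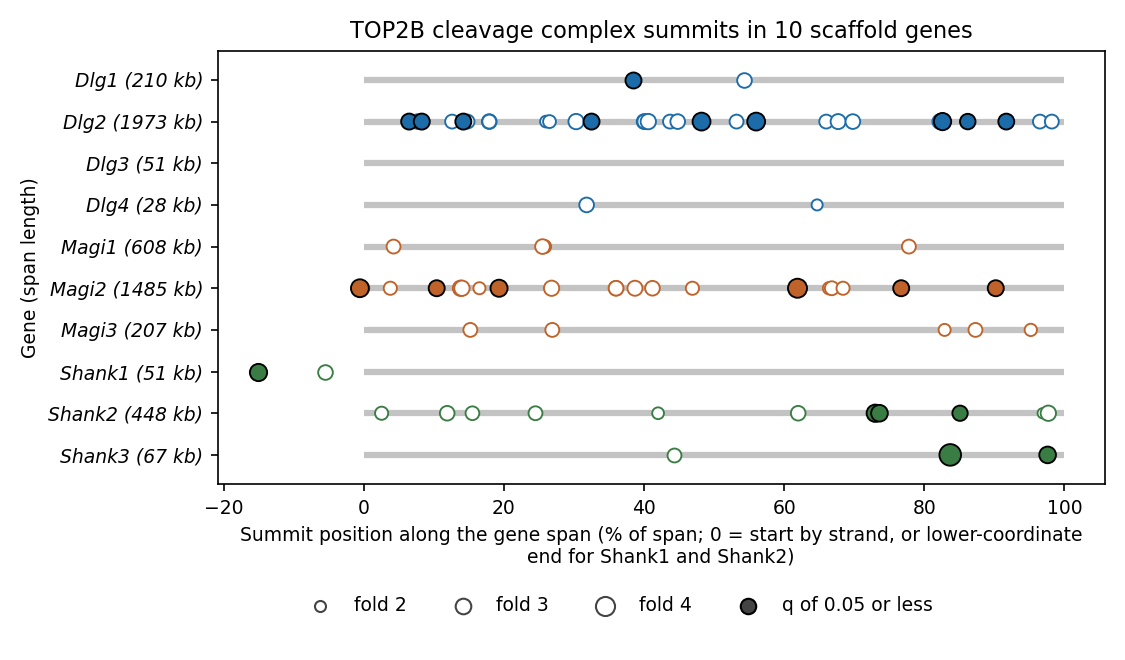
Position of each summit along the 10 genes, as percent of the span from its start by strand, or from the lower-coordinate end for Shank1 and Shank2. Circles are summits, their area grows with fold enrichment, and filled circles have a deposited q of 0.05 or less. Summits are spread along Dlg2 and Magi2, both summits of Shank1 lie outside its span, and Dlg3 has none.

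Dlg2 encodes PSD-93, a scaffold of the postsynaptic density that binds NMDA receptors, and is the longest of the 10 genes (chromosome 7 from 90476188 to 92449246). It held 29 summits, all inside the span, at 1.47 per 100 kb (0.984 to 2.11). The summits ran along nearly the whole gene, with 8, 4, 8, 3 and 6 in 5 equal parts of the span from start to end. The longest stretch without a summit was 246.0 kb, from 91852578 to 92098605. RefSeq lists 3 starts inside the span. Before the first of these lay 11 summits in 614.6 kb, or 1.79 per 100 kb (0.893 to 3.20), and between the first and the next lay 12 in 971.6 kb, or 1.24 per 100 kb (0.638 to 2.16). The segments after those starts held 3 summits each, at 1.74 (0.358 to 5.08) and 1.40 (0.289 to 4.09) per 100 kb, so the intervals of all 4 segments overlapped.

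Folds at the Dlg2 summits ran from 2.14 to 3.63, with a median of 2.77, equal to the median of the whole list. The fold is the pileup of ChIP fragments at the summit over the control level, as the authors' peak caller gave it. The highest value of 3.63 was reached at 2 summits, 91426421 and 91581275, near the middle of the gene, each with 20 fragments (95% Poisson interval 12.2 to 30.9) against a control level of 4.78. Fragment counts and control levels were reconstructed here from the deposited fold and p. Of the 29 summits, 9 had a deposited q of 0.05 or less. Beside the 2 highest, these included 92106287 with a fold of 3.46 and 19 fragments, and 90639384, 90603808, 90756714 and 91117505, each with a fold of 3.11 and 17 fragments. The summit at 92106287 and its neighbour at 92098605 also lay inside 4930567K12Rik, a long noncoding RNA gene within the Dlg2 span.

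The other Dlg genes held few summits. Dlg1 encodes SAP97, a scaffold that takes part in the trafficking of AMPA receptors, and held 2 in 209.9 kb (chromosome 16 from 31663443 to 31873356). Its summit at 31743976 had a fold of 3.11 and a q of 0.039, and that at 31777336 a fold of 2.77. Both lay in the middle of the gene, 10.4 kb or more from any of its 4 listed starts. Dlg4 encodes PSD-95, the most abundant scaffold of the excitatory postsynaptic density, and is the shortest gene of the set at 28.3 kb (chromosome 11 from 70017203 to 70045535). It also held 2 summits, with a fold of 2.77 at 70026211 and of 2.01 at 70035539, neither with a q of 0.05 or less. The Dlg4 summit at 70026211, with 15 fragments (8.40 to 24.7), was the only 1 of 66 summits that lay within 5 kb of a listed start of its own gene, while 13.5% of all summits on the chromosomes of the table lay within 5 kb of any listed start. These measures are unlike, as the second takes starts of any gene, and gene length is not matched. They do not show fewer summits near the starts of scaffold genes.

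Dlg3 encodes SAP102, a scaffold prominent in young neurons, and lies on chromosome X from 100767411 to 100818410. It had no summit in its span or within 10 kb, and the nearest on the chromosome was 630750 bp from an end of the gene. A count of 0 in 51.0 kb allows up to 5.88 summits per 100 kb. Chromosome X as a whole held 190 of the 35505 summits on autosomes and X, and 0.0778 summits were expected for a gene of this length there, so no difference from other genes was detectable at Dlg3.

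Magi2 encodes a scaffold of excitatory and inhibitory synapses also known as S-SCAM, and held 18 summits in 1485.4 kb (chromosome 5 from 19219387 to 20704792), with 2 more just outside its lower-coordinate end. The density was 1.21 per 100 kb (0.718 to 1.92). The peak of highest fold in Magi2 lay at 20139500, with a fold of 3.98, 22 fragments (13.8 to 33.3) and a q of 4.97e-04. It lay 222.9 kb beyond its lower neighbour, and the next summit above it was nearer, at 20205020. A summit at 19211071, 8.3 kb below the span, had a fold of 3.63, and another at 19506126 a fold of 3.40 in an interval of 462 bp. In all, 6 of the 20 summits had a q of 0.05 or less, and the remaining 3 of these each had a fold of 3.11. The segment from the first listed start to the second held 11 summits, or 1.62 per 100 kb (0.807 to 2.89), and the segment beyond it 7, or 0.878 per 100 kb (0.353 to 1.81). The summit at 19506126 lay in the pseudogene Gm21009, and both summits outside the span lay in the long noncoding RNA gene 4921504A21Rik.

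Summits in Magi1 and Magi3 did not exceed the median fold of the list. Magi1 encodes a scaffold of cell junctions and held 5 summits in 608.5 kb (chromosome 6 from 93675453 to 94283929), at 0.822 per 100 kb (0.267 to 1.92), the lowest density of a member with a summit. Of these, 3 lay within 2.1 kb of each other, at 94126755, 94128454 and 94128838, and beyond them the gene had no summit for 316.1 kb. The highest fold in Magi1 was 2.77, at 94128838. Magi3, which encodes a junctional scaffold, held 5 summits in 207.1 kb (chromosome 3 from 104013259 to 104220406), at 2.41 per 100 kb (0.784 to 5.63). Folds in Magi3 ran from 2.20 to 2.59, with the highest value at 3 summits and the first of these at 104039591. No summit of Magi1 or Magi3 had a q of 0.05 or less.

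Shank3 encodes a master scaffold of the postsynaptic density, and loss of its function is a known cause of Phelan-McDermid syndrome. The gene spans 67.2 kb on chromosome 15 from 89493013 to 89560261 and held 3 summits, at 4.46 per 100 kb (0.920 to 13.0). The summit at 89549288 had the highest fold of all 79, 4.84, with 27 fragments (17.8 to 39.3) against a control level of 4.78 and a q of 2.03e-07. Only 4 peaks on the chromosomes had a fold as high or higher, itself included. Its interval of 723 bp, from 89548992 to 89549714, was matched or exceeded in width by 10 of the 35505 peaks, itself included, and the median width was 222 bp. It lay 83.7% of the way along the gene, 10973 bp before the end. The summit at 89558624, 1637 bp before the gene end, had a fold of 3.29 and a q of 0.0208, and that at 89522776 a fold of 2.59. The last of these also lay in Gm15609, a long noncoding RNA gene.

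Shank2, whose product links glutamate receptor complexes to the cytoskeleton, held 11 summits in 448.0 kb (chromosome 7 from 143978077 to 144426043), at 2.46 per 100 kb (1.23 to 4.39). Its 3 summits with a q of 0.05 or less all lay in the upper part of the span by coordinate. They were at 144305246 with a fold of 3.46, at 144307923 with 3.29 and at 144359169 with 2.93. The remaining 8 had folds from 1.88 to 2.94, and the lowest of these, at 144412172, was also the lowest of all 79. Shank2 and the long noncoding RNA gene Gm34621 shared the summit at 144415954.

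Shank1 encodes a postsynaptic scaffold enriched in mature spines and had no summit within its 51.2 kb (chromosome 7 from 44308916 to 44360094). A count of 0 there allows up to 5.86 per 100 kb. Its 2 summits lay below the lower-coordinate end, at 44301205 with a fold of 3.46, 19 fragments (11.4 to 29.7) and a q of 0.0102, and at 44306110 with a fold of 2.77. The nearer of these, 2806 bp from Shank1, lay inside the neighbouring protein-coding gene Clec11a, 849 bp from an end of that gene, and the farther lay 318 bp from an end of the pseudogene Gm7238. The summit in Clec11a was the only 1 of the 79 inside a protein-coding gene other than the scaffold gene itself.

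**Figure D2:**
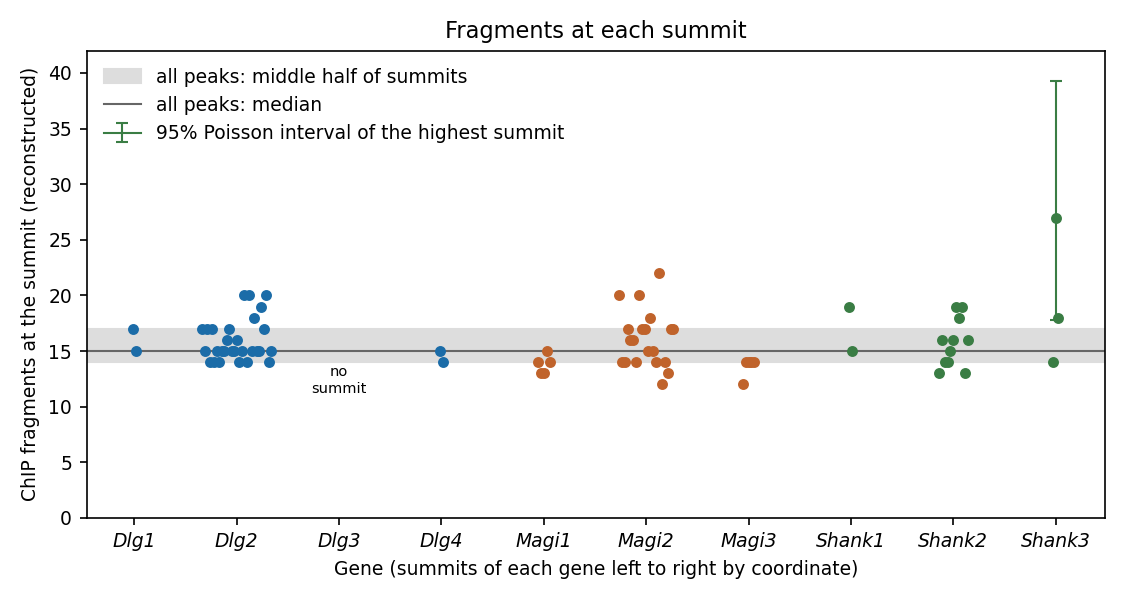
ChIP fragments at each summit, reconstructed from the deposited fold and p, by gene. The line and the grey band give the median of 15 and the quartiles of 14 and 17 over all peaks, and the bar is the 95% Poisson interval of the highest Shank3 summit, 17.8 to 39.3, which lies above that median.

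In height the 79 summits were close to the list as a whole. Their median fold was 2.77 (95% order-statistic interval 2.59 to 2.77), equal to that of all 35505 peaks, and 30 of them (38.0%) lay above it, against 38.2% of all peaks. Fragments at the summit ran from 12 to 27, with a median of 15 in the scaffold genes and also over all peaks. For 1 of the 79, the Shank3 summit at 89549288, the Poisson interval of the fragment count lay wholly above that median, against 0.428% of all peaks. This summit was the highest of the 79, and its interval is not adjusted for that choice. A q of 0.05 or less was found at 22 of 79 summits, or 27.8% (95% Clopper-Pearson interval 18.3 to 39.1), against 23.4% of all peaks. At least 1 such summit lay in or within 10 kb of 6 of the 10 genes, Dlg1, Dlg2, Magi2 and all 3 Shank genes, against 21.3% of protein-coding genes. This share is not matched for length, and the Shank1 summit of that q lay outside its span. Between the families, the share of summits with a q of 0.05 or less was 37.5% in Shank (15.2 to 64.6), 30.3% in Dlg (15.6 to 48.7) and 20% in Magi (7.71 to 38.6), and these intervals overlapped.

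The control level at the summits was low throughout. It was 4.78, the lowest and most common level of the list, at 57 of the 79, and 71.1% of all peaks on autosomes and X shared it. The highest control level was 6.46, so none exceeded 2 times the most common level. Intervals of 400 bp or more were found at 4 summits, 1 in Magi1, 2 in Magi2 and 1 in Shank3, and among all peaks 3.17% were that wide. The minimum width of 190 bp was found at 14, against 22.4% of all peaks.

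Whether a scaffold gene held more summits than its length and chromosome give was tested over all 21631 protein-coding genes on autosomes and X. A negative binomial regression of the summit count on a spline of log length and on chromosome gave each gene a fitted count and a two-sided p, adjusted over all genes by the Benjamini-Hochberg method. Dlg2 held 29 summits against 26.6 fitted (1.09 times, 95% range of the fit 8 to 54), and Magi2 18 against 19.4 (0.928 times, range 6 to 40). The largest ratios were at the shortest genes with a summit, with 2 against 0.710 at Dlg4 (2.82 times, range 0 to 3) and 3 against 1.38 at Shank3 (2.17 times, range 0 to 4). Magi3 (1.66 times) and Shank2 (1.51 times) also lay above the fitted count, and Magi1 (0.624 times), Dlg1 (0.625 times), Shank1 and Dlg3 (no summit) below it. These ratios rest on few summits and moved with the setting. With only peaks of q 0.05 or less the ratio was 0 at Dlg4 and at Magi3, and 6.41 at Shank3. Among genes with at least 1 summit it was 1.32 at Dlg4, 1.46 at Magi3 and 1.58 at both Shank2 and Shank3, so the order of these genes depended on the setting. All 10 counts lay within the 95% range of the fit, and the adjusted p was 1 for each in the negative binomial regression. No protein-coding gene passed the threshold of 0.05 in either direction (0% of 21631), with 299 at an unadjusted p under 0.05, none of them a scaffold gene described here, and a Poisson regression with the same terms called 4. The ranges are wide, so changes of the size of the Dlg4 and Shank3 ratios could not be told from the spread among other genes. Genes that overlap share summits and are not independent in this fit.

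**Figure D3:**
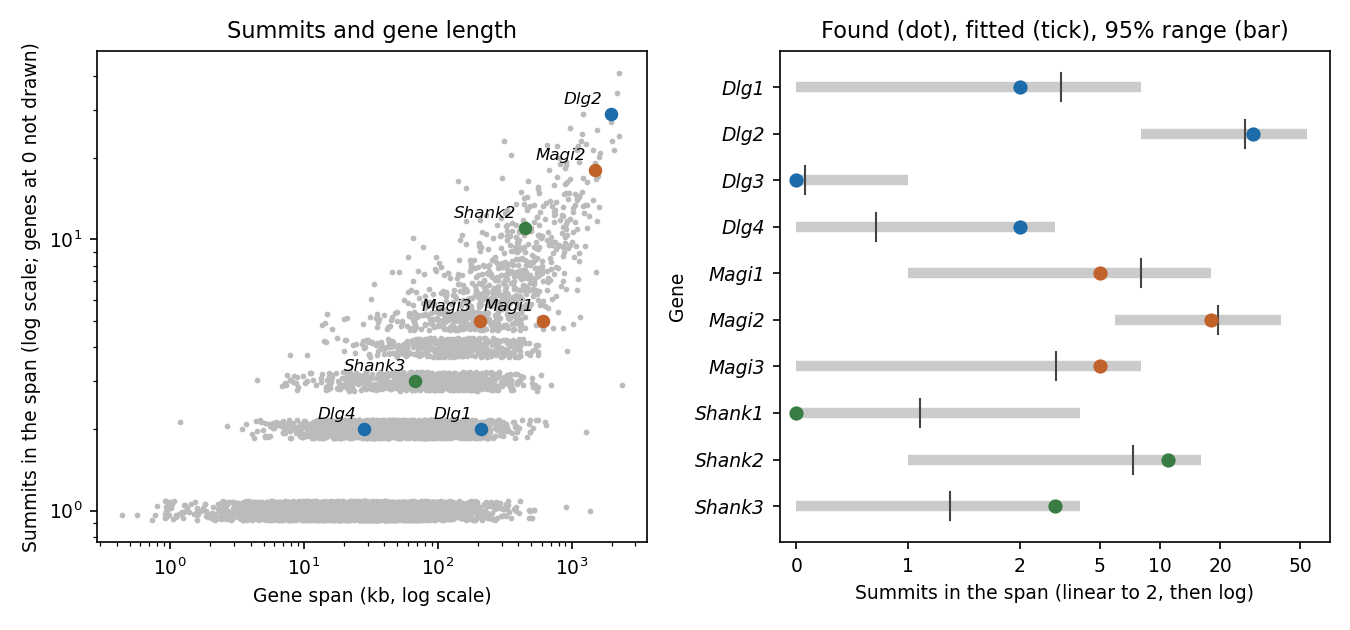
Left, summits in the span against gene length for protein-coding genes with at least 1 summit (grey, moved slightly up or down so that points show) and for the scaffold genes (coloured by family), on log axes. Right, the summits found (dots), the fitted count (ticks) and its 95% range (bars) for each scaffold gene, and all 10 dots lie within their bars.

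In order of density the genes ran from Dlg4 (7.06 per 100 kb, 0.855 to 25.5) through Shank3, Shank2, Magi3, Dlg2, Magi2, Dlg1 and Magi1 to Shank1 and Dlg3, which held none. No neighbours in that order differed beyond counting error. Neighbours are the genes closest in density, and genes further apart in the order were not compared in this way. The ratio of Shank3 to Shank2 was 1.82 (exact interval 0.325 to 6.88), that of Magi3 to Dlg2 1.64 (0.496 to 4.29) and that of Dlg2 to Magi2 1.21 (0.651 to 2.32). By family, Shank genes held 2.47 summits per 100 kb (1.35 to 4.15), Dlg genes 1.46 (1.00 to 2.05) and Magi genes 1.22 (0.809 to 1.76). These densities are not matched for length or chromosome. Against the fitted counts, which take both into account, the families held 1.43, 1.08 and 0.920 times in that order. The Dlg and Magi values rest mainly on Dlg2 and Magi2, which together made up 67.4% of the length and 62.0% of the summits. Without Dlg2 the density over the other 9 genes was again 1.46 per 100 kb (1.07 to 1.94).

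Each gene was then set beside the 500 kb on either side of it, starting 10 kb outside the span. The spans of Dlg2 and Magi2 had nearly the same density as their surroundings, 1.47 against 1.40 per 100 kb at Dlg2 (ratio 1.05, exact interval 0.537 to 2.15) and 1.21 against 1.20 at Magi2 (ratio 1.01, 0.460 to 2.30). The Shank genes lay in the richest surroundings. Shank3 had 4.46 against 3.50 per 100 kb around it (ratio 1.27, 0.251 to 4.04), Shank2 2.46 against 3 (ratio 0.819, 0.370 to 1.68) and Shank1 0 against 3.50, with an upper limit of 2.17 for the ratio. Dlg4 had 7.06 against 2.60 (ratio 2.71, 0.312 to 10.8), Magi3 2.41 against 1.70 (ratio 1.42, 0.410 to 4.01), Magi1 0.822 against 1.40 (ratio 0.587, 0.165 to 1.72) and Dlg1 0.953 against 1.60 (ratio 0.595, 0.0664 to 2.53). Dlg3 had no summit in the gene and none in the 1000 kb around it. All 9 intervals included 1. At the density of their surroundings the 10 spans would have held 79.2 summits, and 75 were found (0.948 times, 95% log-normal interval with the counting error of spans and surroundings 0.681 to 1.32).

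**Figure D4:**
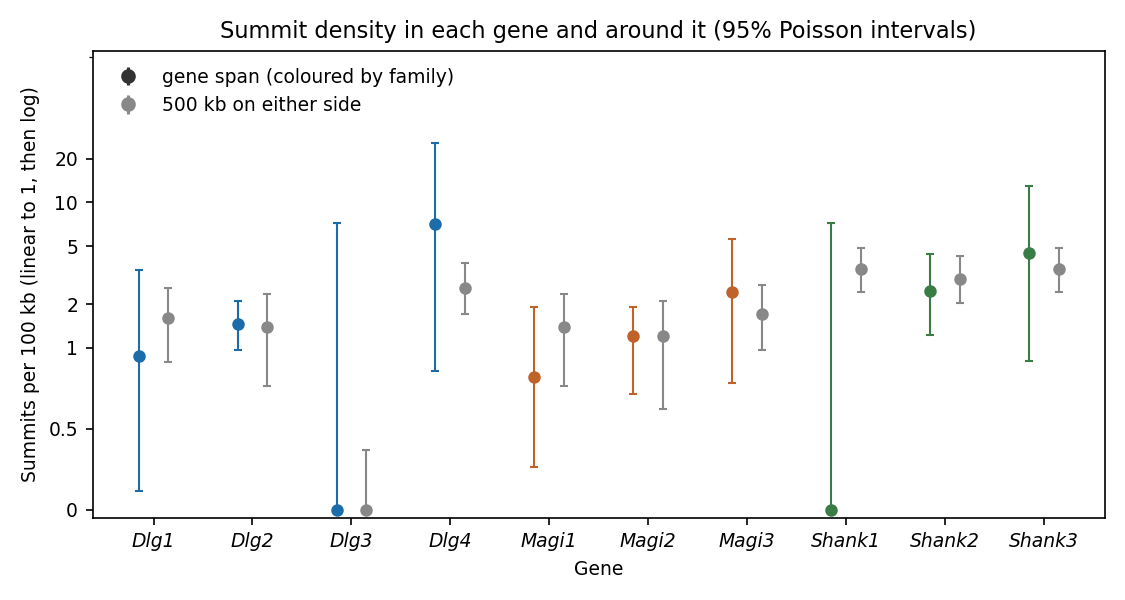
Summits per 100 kb in the span of each scaffold gene (coloured by family) and in the 500 kb on either side (grey), with 95% Poisson intervals. In each pair the intervals overlap, and the surroundings of Shank1, Shank2 and Shank3 lie at 3 to 3.50 per 100 kb.

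Along the genes the summits were spread over all 5 equal parts of the span. In the 7 genes with a known strand and a summit in the span, these parts from start to end held 16, 14, 12, 10 and 12 of 64 summits. The parts are long in Dlg2 and Magi2, so they cannot show whether summits gather close to a start. The first listed start of Dlg2 lies 614.6 kb into its span. Neighbouring summits in a span were a median of 41.7 kb apart, against 41.4 kb over all neighbouring summits of the list. Of 67 distances within the spans 8 (11.9%) were within 5 kb, against 9.20% of all neighbouring distances. These measures are unlike, as a distance within a span is limited by gene length, while those of the list also cross gene boundaries. The 8 pairs within 5 kb lay in Dlg2, Magi1, Magi2 and Shank2, 2 in each, and the closest were 370 bp apart in Dlg2, at 90829199 and 90829569, and 384 bp apart in Magi1.

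Genes of other synaptic scaffolds were described in the same way, from lists chosen with earlier results of these data known. Over all protein-coding genes 36.6% had a summit in the span and 8.30% had one within 1 kb of an end. These shares are not matched for the length of the listed genes. Of 20 postsynaptic scaffold and linker genes, 17 had a summit in the span and 3 at an end, and they held 81 summits against 68.0 fitted (1.19 times, 1.77 per 100 kb). The most were found in Dlgap1 and Dlgap2, which encode partners of Dlg and Shank proteins (12 each), and in Lrrc7 and Grip1, which encode further PDZ scaffolds (11 each). Of 18 presynaptic active zone genes, 15 had a summit in the span and 1 at an end, with 75 summits against 60.7 fitted (1.24 times, 1.72 per 100 kb). Rims1 held 12 summits and Erc2 11, both active zone scaffold genes, followed by Ppfia2 and Apba1 with 7 each. Of 10 inhibitory postsynaptic scaffold genes, 8 had a summit in the span and 2 at an end, with 35 summits against 38.9 fitted (0.900 times, 0.709 per 100 kb). Gphn, which encodes gephyrin, the anchor of glycine and GABA-A receptors, held 12 summits and Ank3, which encodes the anchoring protein ankyrin-G, 7, and 4 genes tied with 3. Among these was Dmd, the dystrophin gene, which spans 2390.4 kb of chromosome X, the chromosome with few summits. The whole list spans 4933.1 kb, so its density of 0.709 per 100 kb is lowered by Dmd and is not comparable with those of the other lists. The fitted count takes length and chromosome into account. The median ratio of found to fitted summits was 1.19, 1.09 and 0.780 in these lists in that order, against 1.01 in the 10 genes described here and 0 over all protein-coding genes, of which 63.4% held no summit in the span. Over protein-coding genes with a summit, which were chosen by the outcome, it was 1.74. Neither of these medians over protein-coding genes is matched for the length of the listed genes. No gene of the 3 lists passed the test in either direction (0 of 48 by the negative binomial regression). Bsn, which encodes the active zone scaffold Bassoon, was named after its values were seen. It held 6 summits against 1.71 fitted, with an unadjusted p of 0.0373 in the negative binomial regression, the only gene of the 48 under 0.05. Of all 21631 protein-coding genes, 299 were under 0.05 before adjustment, so 1 of 48 does not set these lists apart.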

How the data were processed

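TOP2B cleavage complexes were mapped in etoposide-treated mouse cortical neurons, and the authors deposited 1 peak list in narrowPeak layout, pooled over libraries. Per the submitters' processing notes, FastQC, Trimmomatic, BWA, SAMtools and MACS2 were used, and the builds named are mm10 and GRCm38.p6. Tool versions, caller settings, duplicate treatment and the choice of libraries for pooling are not stated in the labels. The fold (a linear ratio with 1 added to pileup and control), the −log10 p and −log10 q are the deposited values. The display score in the deposited list was not used. Interval and summit positions are deposited in bp and were made 1-based. Depth per library is unknown.

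A whole-number pileup that fits fold and Poisson p within 0.002 of −log10 p was unique for 35502 of 35505 peaks on the 19 autosomes and X. Gene spans came from a RefSeq table of GRCm38.p6 with 49554 genes there, 21631 protein-coding, and starts and strands from its promoter table, in which 8 of the 10 genes matched. No genome sequence was used, so exons, introns and the bases at summits were not analysed here. Expected counts came from a negative binomial regression (glm.nb of MASS 7.3.60.0.1 in R 4.3.3) with a natural spline of log length (4 df) and chromosome. The code was run on counts simulated from the fitted model, which cannot show how well the model fits these data. Only longer genes were changed in that simulation, so it does not cover genes as short as Dlg4 or Shank3. Intervals are 95% exact Poisson, Clopper-Pearson or conditional binomial, and log-normal for the sum over surroundings (SciPy 1.17.1). A limit for a count of 0 is 3 counts. The genes and lists were chosen with earlier results of these data known. All 10 genes were named, with each summit of highest fold (ties included), those of q 0.05 or less (at most 5 a gene), genes at their summits, and the 3 genes of each other list with most summits (ties named or counted). Other summits are named to give positions. Alternatives covered q, fold, control level, merging, interval overlap, windows, surroundings and the model.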

Additional observations from a re-analysis of the deposited data

How the results depend on the processing

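With only peaks of q 0.05 or less, the summits in or within 10 kb of the scaffold genes fell to 22, their density to 0.390 per 100 kb, and the median distance between neighbours grew to 132 kb (the last chosen after seeing the data). The median fold was then 3.20, against 3.28 for all peaks of that q. With only peaks at or above the median fold, 43 summits and 0.780 per 100 kb were left. These follow from the smaller list. A q threshold of 0.1 took in 41.8% of the summits, against 40.7% of all peaks. A window of 5 kb around the ends gave 3 genes with a summit, where windows of 500 bp and 1 kb gave none. The other 41 of 49 values over the set kept within 1.5 times or within their interval. Many of these set a count of 0 beside 0, for genes called and for genes with a summit at an end. Such values say little about stability. None of the 79 summits had a high control level, so leaving out such peaks could not change their count. No setting of the regression gave a scaffold gene an adjusted p under 0.05, and the lowest was 1. In 8 of 78 such values a gene lay on the other side of its fitted count. Over all protein-coding genes the regression called 0, against 1 with peaks of q 0.05 or less, 4 under a Poisson model and 5 among genes with a summit, and 0 under the other settings. The fit among genes with a summit estimated no overdispersion, so it differed from the regression on all genes in the genes and in the spread at once, and its genes were chosen by the outcome. With surroundings of 200 kb on either side the 10 spans held 0.794 times the summits of their surroundings (0.525 to 1.20), and with 1 Mb 0.918 times (0.694 to 1.21), and both intervals included 1. No paired analysis was possible because the list is pooled over libraries and holds no value per library, and for the same reason no library could be left out. Counts of 12 to 27 fragments at a summit limit what can be told apart in height.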
